A study of Mus musculus with 9 samples.

Results

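The interferon-response genes Stat2, Irf9, Irf7, Isg15, Usp18, Ifit1, Ifit3, Ifitm3 and Bst2 were followed in the paraventricular nucleus (PVN) of mice fed a high fat diet (HFD) with or without minocycline. They were picked by gene symbol, as interferon-induced genes and their regulators, from 27179 genes in a table of RNA sequencing read counts. All 9 were in the table, and all 9 were among the 17344 genes that passed a filter on low counts and were tested. The samples were PVN tissue punches from 9 male wild type mice (C57BL/6 in the labels, C57BL/6J in the study's methods) in 3 groups of 3, named Control, HFD and HFD+Mino. For 12 weeks the Control group was fed chow (16% of calories from fat), while both HFD groups were fed a diet with 60% of calories from fat. The HFD+Mino group was in addition given minocycline, a tetracycline antibiotic with anti-inflammatory action, in the drinking water at 40 mg/kg/day in the last 6 weeks. The mice were 5 weeks old when the diets began, and the labels give postnatal day 35 as age for every group. The study asked which PVN genes changed under HFD and returned with minocycline.

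Interferons are cytokines that cells release on sensing viral or misplaced nucleic acids. Type I interferons bind a receptor whose kinases phosphorylate STAT2, which acts with IRF9 in the ISGF3 complex, and ISGF3 then binds a short sequence in the promoters of interferon-stimulated genes. In the brain, microglia, endothelial cells and neurons all carry the receptor and respond to it, and low interferon signaling is present without infection.

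The punches were not alike in composition, which bears on each result below. Total counts ran from 17728590 to 42326213 per sample. Most defining markers of the PVN were nearly absent from Control replicate 1. Avp stood at 0.149 CPM (counts relative to library size, which edgeR's TMM method had adjusted), Oxt at 0.770 CPM and Otp at 0 counts. Crh was an exception, at 20.6 CPM, above Control replicate 2 and HFD replicate 1 and below the rest. The 6 PVN neuron markers summed to 27.8 CPM in Control replicate 1 and to between 931 and 3724 CPM in 6 others. HFD+Mino replicates 1 and 2 had sums of 37707 and 31901 CPM. Avp alone made most of these, at 28035 and 22169 CPM. Crh and Trh were also highest in these samples, while Otp was below every HFD sample in both. Oligodendrocyte markers summed to 29202 CPM in Control replicate 1 and to at most 6883 CPM elsewhere. Ribosomal RNA precursor took 0.359% to 0.441% of counts in HFD and 0.0272% to 0.118% in the other groups. In bulk tissue, fewer cells of a type and less RNA per cell cannot be told apart.

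The median difference of these genes was largest between HFD+Mino and HFD. Isg15, Ifitm3, Bst2 and Irf7 had the highest estimates, Irf9, Usp18, Ifit1 and Ifit3 were also higher in every HFD+Mino mouse than in every HFD mouse, and Stat2 went the other way. A gene was called when its Benjamini-Hochberg false discovery rate (FDR) in edgeR's quasi-likelihood test was under 0.01 and its fold change at least 1.5. By that rule Isg15 was called higher in HFD+Mino, 1 of 9 genes beside 1.98% of all tested genes, and none of the 9 was called lower beside 2.16% of all. With an FDR under 0.05, Isg15, Ifitm3, Irf7 and Bst2 were higher, 4 of 9 beside 14.6% of all tested genes, and DESeq2 called these 4 at its own FDR under 0.01, beside 12.3% of all genes that it called higher. At an unadjusted p under 0.05, 7 of the 9 were higher and Stat2 was lower, while 41.3% of all tested genes were past that limit in either direction. In 8 of 9 genes all HFD+Mino samples lay above all HFD samples, a separation that 23.3% of all tested genes showed. The median log2 fold change was 1.34 over the 9 genes and 0.01 over all tested genes.

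**Figure D1:**
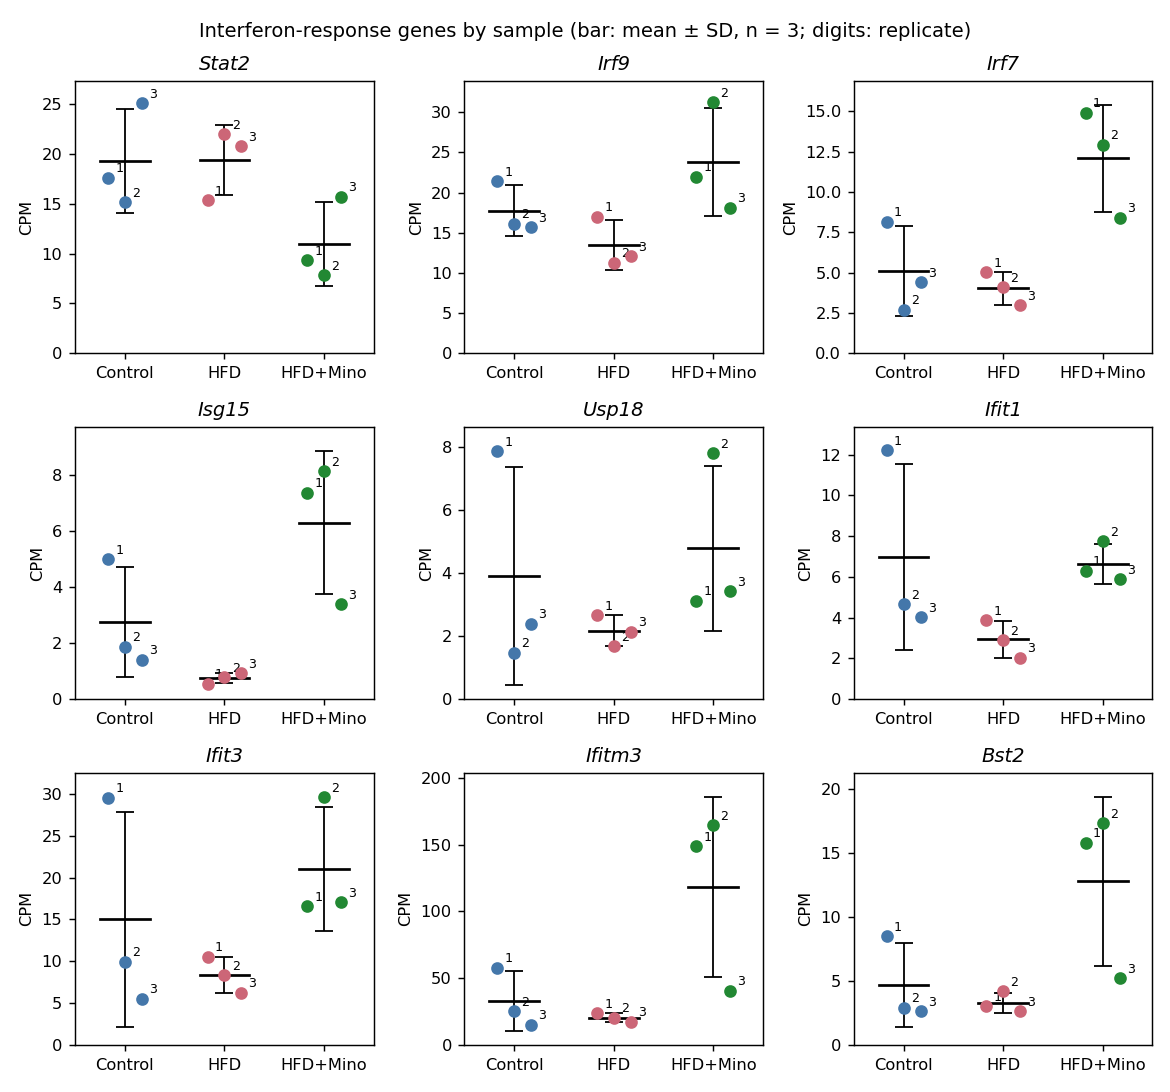
Each panel plots 1 gene in CPM for the 3 mice of each group, with points numbered by replicate and bars at the mean ± SD. HFD samples lie close together and low for most genes, Control replicate 1 stands above the other Control samples for 8 of the 9 genes, and HFD+Mino replicate 3 is the lowest of its group for Irf9, Irf7, Isg15, Ifit1, Ifitm3 and Bst2.

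The promoter stretches below show the sequence that interferon-stimulated genes are known for. Promoter windows of 300 bases, from 250 before to 50 after the RefSeq transcript start (GRCm38.p6), were found for 8 of the 9 genes, the exception being Usp18. The interferon-stimulated response element was searched as a pair of GAAA separated by any 2 bases (a pair of TTTC on the other strand), and it was present in 1131 of 32851 promoter windows of all genes (3.44%). It was present in the windows of 6 of the 8 genes. Each stretch is written 5′ to 3′ on the strand of its gene, and capitals mark bases inside a match on either strand, including one that begins before the stretch. Overlapping matches run together into 1 block.
Isg15: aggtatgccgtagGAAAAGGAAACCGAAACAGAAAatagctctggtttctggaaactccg
Ifitm3: AAActtctgaGAAACCGAAActgccgcaga
Bst2: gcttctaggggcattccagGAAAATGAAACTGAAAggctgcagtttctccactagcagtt
Ifit1: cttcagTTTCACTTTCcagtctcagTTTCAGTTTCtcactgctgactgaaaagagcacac
Ifit3: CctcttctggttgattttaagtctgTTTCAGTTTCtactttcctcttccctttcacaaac
Stat2: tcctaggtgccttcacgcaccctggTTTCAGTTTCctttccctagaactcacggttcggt

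The Isg15 stretch is at chr4:156200850-156200909 (minus strand), with 3 matches of which the nearest begins at -66 from the start. The Ifitm3 stretch is at chr7:141010706-141010735 (minus strand), and its match shown in full begins 19 bases after the transcript start, with another match nearer to the start. The Bst2 stretch is at chr8:71537562-71537621 (minus strand), with the nearest match at -124. The plus-strand stretches are Ifit1 at chr19:34640779-34640838, Ifit3 at chr19:34583382-34583441 and Stat2 at chr10:128270251-128270310, with nearest matches at -85, -122 and -222. The letters were in neither Irf9 window and not in the Irf7 window. A match describes the sequence only and shows no binding in these samples.

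Among the regulators, Stat2 encodes the transcription factor that links ISGF3 to the type I receptor. It is on chr10:128270498-128292853 (GRCm38). Stat2 stood at 17.6, 15.2 and 25.1 CPM in Control replicates 1 to 3, at 15.4, 22.0 and 20.8 CPM in HFD and at 9.34, 7.83 and 15.7 CPM in HFD+Mino. HFD+Mino replicates 1 and 2 were lowest of all samples, and replicate 3 overlapped the other groups. The log2 fold change of HFD+Mino over HFD was -0.82 ± 0.32 (SE), with an FDR of 0.0765 (edgeR). A replicate block for Control and HFD+Mino was also fitted (same-numbered samples paired, HFD unpaired), with the pairing read from these same counts. With that block the edgeR FDR of Stat2 was 0.00871 at a log2 fold change of -0.89. That fit called 25.6% of all genes between HFD+Mino and HFD. Without HFD+Mino replicate 3 the log2 fold change was -1.18 (edgeR FDR 0.0122). It was weaker without HFD+Mino replicate 2, at -0.63 (edgeR FDR 0.192), and without HFD replicate 2, at -0.72 (edgeR FDR 0.216). Stat2 has 5926 bases of exons, the most of the 9 genes. Removal of a smooth trend of each sample on exon length left a log2 fold change of -0.45 (edgeR FDR 0.252). HFD and Control had nearly equal means, 19.4 ± 3.53 and 19.3 ± 5.17 CPM (SD, n = 3).

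Irf9, on chr14:55603985-55610030, encodes the DNA-binding subunit of ISGF3. Its level was 21.4, 16.1 and 15.7 CPM in Control, 17.01, 11.3 and 12.1 CPM in HFD and 22.0, 31.2 and 18.1 CPM in HFD+Mino. All HFD+Mino samples were above all HFD samples by a small margin, and they overlapped Control. Irf9 had a log2 fold change over HFD of 0.82 ± 0.28 (SE), just as large as that of Stat2 with the opposite sign, and its FDR of 0.0511 (edgeR) was past neither threshold. With a smooth trend of each sample on exon length removed it was 1.20 (edgeR FDR 0.0301). Exons of Irf9 share 123 bases with Rnf31 on the same strand, so some reads could belong to either gene.

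Irf7 encodes an interferon-induced transcription factor that amplifies the transcription of interferon genes, and it is on chr7:141263183-141266499. Irf7 measured 8.17, 2.71 and 4.41 CPM in Control, 5.02, 4.09 and 2.99 CPM in HFD and 14.9, 12.9 and 8.41 CPM in HFD+Mino. It was the only one of the 9 genes in which every HFD+Mino sample was above every Control sample as well as every HFD sample. Means were 5.10 ± 2.79, 4.03 ± 1.02 and 12.1 ± 3.33 CPM (SD, n = 3). HFD+Mino over HFD gave a log2 fold change of 1.59 ± 0.43 (SE, edgeR FDR 0.0222), which is 3.00-fold. It ranged from 1.41 to 1.79 when single samples were left out, with FDR values up to 0.0932 and an FDR of 0.00941 without HFD+Mino replicate 3. In contrast to the short genes below, Irf7 (3776 bases of exons) had nearly the same log2 fold change, 1.65, after the length trend was removed (edgeR FDR 0.0305). With the replicate block for Control and HFD+Mino the FDR was 0.00599, under the threshold for a call.

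Isg15 encodes a ubiquitin-like protein that is conjugated to other proteins after interferon exposure, and it is on chr4:156199424-156200818. It was present at 4.99, 1.86 and 1.41 CPM in Control, at 0.552, 0.783 and 0.921 CPM in HFD and at 7.36, 8.13 and 3.39 CPM in HFD+Mino. These were 11, 27 and 37 reads in the HFD samples, the lowest counts among the 9 genes, and 124 to 219 reads in HFD+Mino. No HFD sample reached the lowest sample of either other group, and HFD+Mino replicate 3 was below Control replicate 1. The group means were 2.75 ± 1.95, 0.752 ± 0.186 and 6.29 ± 2.55 CPM (SD, n = 3).

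Isg15 was 8.23-fold higher in HFD+Mino than in HFD, a log2 fold change of 3.04 ± 0.58 (SE, edgeR quasi-likelihood test, FDR 0.00846). The log2 fold change stayed between 2.81 and 3.34 when any 1 of the 9 samples was left out. The call was nevertheless lost, with an FDR from 0.0166 to 0.0456, without Control replicate 2, without any 1 HFD sample or without HFD+Mino replicate 1 or 2. Removal of the trend on exon length lowered the log2 fold change to 1.62 (edgeR FDR 0.0253), which also ended the call. Between HFD and Control the log2 fold change of Isg15 was -1.86 ± 0.56 (SE, edgeR FDR 0.0816). It was -1.10 without Control replicate 1 (edgeR FDR 0.347).

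Usp18, on chr6:121245906-121270917, encodes the protease that removes ISG15 from its targets and restrains the type I receptor. Its level was 7.85, 1.47 and 2.38 CPM in Control, 2.66, 1.68 and 2.14 CPM in HFD and 3.11, 7.80 and 3.41 CPM in HFD+Mino. Control replicate 1 and HFD+Mino replicate 2 stood far above their groups, and the other samples lay close together. Usp18 had a log2 fold change of 1.15 ± 0.61 (SE) in HFD+Mino over HFD, with the highest FDR of the 9 genes (0.180, edgeR), and it was 0.60 without HFD+Mino replicate 2. Isg15 and its protease thus had estimates of the same sign and unequal size, a difference that was not tested.

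Ifit1 and Ifit3 encode interferon-induced proteins that bind each other, and IFIT1 recognizes viral RNA by its cap structure. The pair lies on chromosome 19, at chr19:34640889-34650009 and chr19:34583119-34588982. Ifit1 stood at 12.2, 4.66 and 4.03 CPM in Control, at 3.86, 2.90 and 2.04 CPM in HFD and at 6.30, 7.76 and 5.87 CPM in HFD+Mino. All HFD samples were below all samples of both other groups. The log2 fold change was 1.18 ± 0.45 in HFD+Mino over HFD (SE, edgeR FDR 0.0720) and -1.26 ± 0.45 in HFD over Control (SE, edgeR FDR 0.143). HFD+Mino and Control had similar means of 6.64 ± 0.991 and 6.97 ± 4.55 CPM (SD, n = 3), the Control mean being raised by replicate 1.

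Ifit3 measured 29.6, 9.93 and 5.50 CPM in Control, 10.54, 8.35 and 6.22 CPM in HFD and 16.6, 29.6 and 17.04 CPM in HFD+Mino. HFD+Mino was above HFD in all samples, and Control ran from below all HFD samples up to the level of the highest HFD+Mino sample. Over HFD the log2 fold change was 1.34 ± 0.53 (SE, edgeR FDR 0.0813), and 0.57 with the length trend removed. Of the 50-base stretches of Ifit3 transcripts, 51.2% also occur in Ifit3b, beside 7.13% of those of Ifit1 in Ifit1bl1 and Ifit1bl2. The split of reads between these copies is uncertain.

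Ifitm3 encodes a membrane protein of endosomes that blocks viral entry, and it is on chr7:141009590-141010744. Ifitm3 had the highest level of the 9 genes per base of exon, with group means of 48.3, 30.3 and 174 RPKM (CPM per 1000 bases of exon), while the other genes were at 1.71 to 14.1 RPKM in HFD+Mino. It measured 57.9, 25.3 and 15.0 CPM in Control, 23.8, 20.3 and 17.5 CPM in HFD and 149, 164 and 40.7 CPM in HFD+Mino. HFD+Mino replicates 1 and 2 were far above all other samples, while replicate 3 was above HFD and below Control replicate 1. Relative to HFD the log2 fold change was 2.53 ± 0.56 (SE, edgeR FDR 0.0124), a 5.76-fold difference.

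The FDR of Ifitm3 was near the threshold for a call and fell on either side of it. It was 0.00117 without HFD+Mino replicate 3, with a log2 fold change of 2.94, and 0.0619 without HFD replicate 3 (edgeR). With the replicate block for Control and HFD+Mino the log2 fold change was 2.32 (edgeR FDR 3.83e-04), and that fit also called Ifitm3 higher in HFD+Mino than in Control, at a log2 fold change of 1.83 (edgeR FDR 0.00581). With the length trend removed it was 0.92 (edgeR FDR 0.0494). Of the 50-base stretches of Ifitm3, 10.0% occur in Ifitm2, Gm7676 or Gm45717 as well.

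Bst2 encodes tetherin, which holds budding virus particles at the cell surface, and it is on chr8:71534255-71537472. It stood at 8.49, 2.91 and 2.65 CPM in Control, at 3.01, 4.17 and 2.61 CPM in HFD and at 15.8, 17.3 and 5.21 CPM in HFD+Mino. The highest samples were in the order of Ifitm3, with HFD+Mino replicates 2 and 1 on top, then Control replicate 1, then HFD+Mino replicate 3. The log2 fold change over HFD was 1.96 ± 0.55 (SE, edgeR FDR 0.0257), or 3.90-fold. It was 0.59 after removal of the length trend (edgeR FDR 0.281) and 1.82 with the replicate block for Control and HFD+Mino (edgeR FDR 0.00440).

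**Figure D2:**
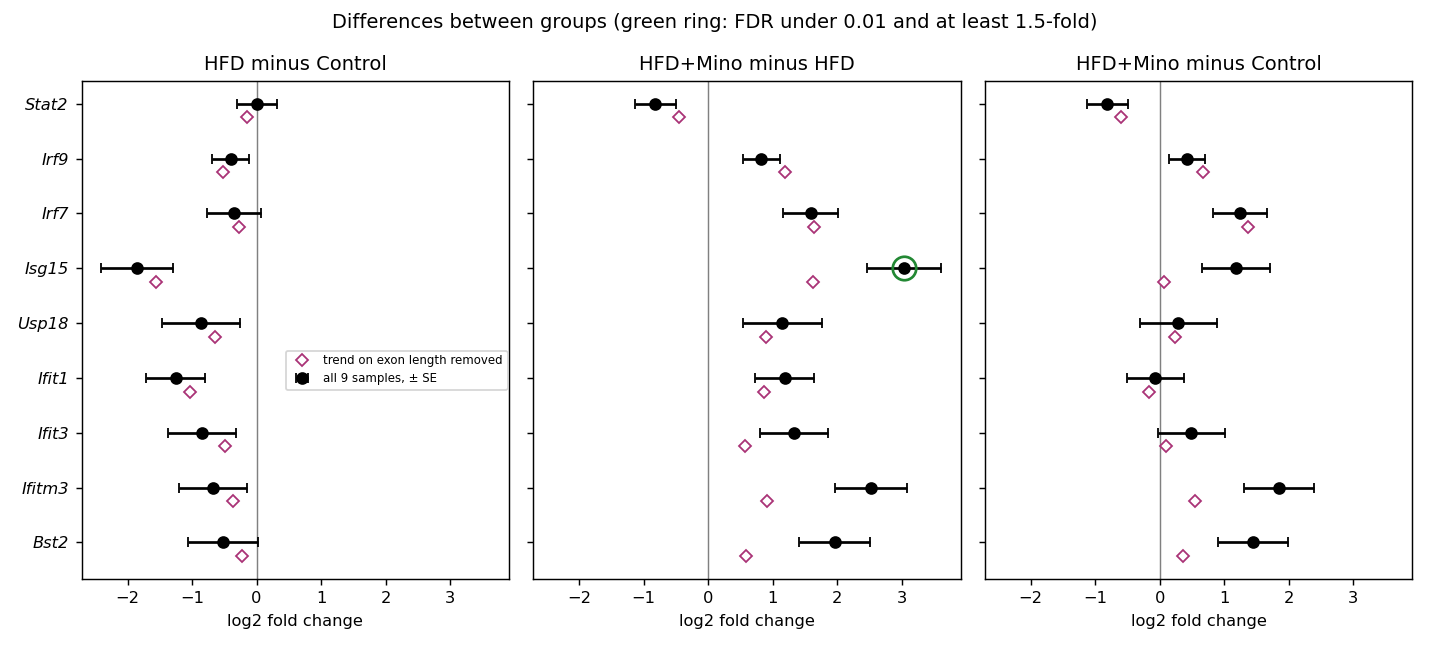
Each panel plots the log2 fold change ± SE of the 9 genes for 1 pair of groups (filled points) beside the value with the trend on exon length removed (open diamonds). In HFD+Mino minus HFD, 8 genes are right of 0 and Isg15 is ringed as called, and the diamonds of Isg15, Ifitm3 and Bst2 lie much closer to 0 than their points.

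Isg15, Ifitm3 and Bst2 had the largest differences and the shortest exons of the 9 genes, with 756, 678 and 903 bases. Short genes had a higher median in HFD+Mino, with no larger share of calls. The 389 tested genes with under 1000 bases of exons had a median log2 fold change of 1.34 over HFD, and the 15236 longer ones had -0.07, while 2.06% of the short and 2.07% of the longer genes were called higher. Among the 389, Isg15 ranked 8, Ifitm3 ranked 19 and Bst2 ranked 53 from the top. The part of exon length in the result was not tested beyond the removal of the trend.

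Between HFD and Control, 8 of the 9 estimates were below 0, with a median of -0.68 beside 0.00 for all tested genes. No gene of the 9 was called by edgeR's quasi-likelihood test or by DESeq2, beside 1.74% of all genes called by edgeR and 6.84% called by DESeq2. Isg15 and Ifit1, 2 of 9, had an unadjusted p under 0.05, as did 20.5% of tested genes, and they were also the 2 of 9 whose HFD samples all lay below all Control samples, as did 16% of tested genes. The values rest in part on Control replicate 1, which was highest in Control for every gene but Stat2. Without it the estimates of Irf7, Usp18, Ifit3, Ifitm3 and Bst2 turned to 0.17, 0.16, 0.11, 0.02 and 0.23, and Ifit1 was at -0.58 (edgeR FDR 0.594).

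Between HFD+Mino and Control, 7 estimates were above 0, with a median of 0.49 beside -0.02 for all tested genes. No gene of the 9 was called by either tool, beside 0% of all genes called by edgeR and 1.56% by DESeq2, while 5 of the 9 and 21.3% of all genes had an unadjusted p under 0.05. Irf7 was the 1 gene of 9 without overlap, beside 8.93% of all genes. The largest estimate was that of Ifitm3, 1.85 ± 0.54 (SE, edgeR FDR 0.133). In this pair too, the 389 genes with under 1000 bases of exons had a higher median log2 fold change, 1.18 beside -0.07 for longer genes. Under alternatives that kept all samples of both groups, the estimates of the short genes Ifitm3, Bst2 and Isg15 went as low as 0.55, 0.36 and 0.07. The part of exon length here was not tested further. The replicate block for Control and HFD+Mino called 1 of the 9 genes, Ifitm3, and 3.18% of all genes.

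A 3-way test asked whether any group differed, and required HFD to be the highest or lowest group, by 1.5-fold or more relative to the overall mean of group log2 values. It called 0 of the 9 genes with edgeR's quasi-likelihood test, beside 2.13% of all tested genes, while 7 of them and 39.0% of all genes had an unadjusted p under 0.05. The FDR was 0.0172 for Isg15, 0.0196 for Ifitm3, 0.0371 for Irf7 and 0.0438 for Bst2 (edgeR), with HFD the lowest group in each. DESeq2 called these 4 genes and 13.5% of all genes, and edgeR with the replicate block for Control and HFD+Mino called the 4 and 13.2% of all. The HFD samples enter both of the comparisons with HFD, so the lower estimates against Control and the higher ones with minocycline are not independent.

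Over the 9 samples, the 8 genes other than Stat2 ran closely together. Pearson's r of log2(CPM + 0.1) ranged from 0.708 to 0.977 in their 28 pairs, with a median of 0.823, and Ifitm3 and Bst2 formed the closest pair. Stat2 ran opposite to the others, with r from -0.914 to -0.512. The points share libraries and 3 groups, so these values are a description. The r of gene pairs in general was not computed, so whether these genes ran together more than others was not tested. Usp18 was most like Ifit3b, a further interferon-induced gene (r = 0.959). The tested genes most like the others were Amer2 for Stat2 (0.978), A930024E05Rik for Irf9 (0.968), C130060C02Rik for Irf7 (0.964), Fam114a2 for Isg15 (0.990), Tmc3 for Ifit1 (0.966), Lpcat2 for Ifit3 (0.966), Stx18 for Ifitm3 (0.990) and Mettl23 for Bst2 (0.984).

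Summed markers of some other cell types varied between samples along with these genes. Microglial markers summed to 363 to 618 CPM in Control, 466 to 495 CPM in HFD and 574 to 777 CPM in HFD+Mino. Of these markers, 7 of 12 were above all HFD samples in all HFD+Mino samples, beside 23.3% of all tested genes. Csf1r, Itgam and Cx3cr1 (named here after their values were seen) went the other way, below all HFD samples in all HFD+Mino samples. Csf1r was at 106, 89.4 and 106 CPM in HFD and 36.7, 30.3 and 86.7 CPM in HFD+Mino. Endothelial markers (8) summed to 169 to 217 CPM in HFD, to 466, 437 and 191 CPM in the HFD+Mino samples and to 365, 226 and 197 CPM in Control. A single marker, Ly6c1, named here after its values were seen, made most of that difference, and 2 of the 8 were above all HFD samples in all HFD+Mino samples, the median of the 8 log2 fold changes being 0.06. Without Ly6c1 the other 7 summed to 136 to 171 CPM in HFD and to 170, 190 and 116 CPM in HFD+Mino, so that these groups overlapped. Mural cell markers (6) were at 69.6 to 97.2 CPM in HFD, 109 to 262 CPM in HFD+Mino and 129 to 227 CPM in Control, with 1 of the 6, Pdgfrb (also named after its values were seen), called lower in HFD+Mino. Blood and leukocyte markers (9, of which 5 passed the filter) were at 21.3 to 33.4 CPM in HFD, 16.9 to 104 CPM in HFD+Mino and 20.4 to 72.4 CPM in Control. Border macrophage markers (6) were at 2.58 to 3.51 CPM in HFD, 3.99 to 12.1 CPM in HFD+Mino and 3.06 to 4.39 CPM in Control. Astrocyte markers (6) went the other way in sum, at 2241 to 2353 CPM in HFD and 1311 to 1688 CPM in HFD+Mino, with 1815 to 2055 CPM in Control. Of the 6, 1 (S100b) was above all HFD samples in all HFD+Mino samples. In the microglial, endothelial (Ly6c1 included), mural, blood and border macrophage lists the highest sums were those of Control replicate 1 and HFD+Mino replicates 1 and 2, which were also the highest samples for Irf9, Isg15, Ifit1, Ifitm3 and Bst2. Ependymal markers (4) were at 138 to 246 CPM in HFD, 284 to 618 CPM in HFD+Mino and 14.8 to 129 CPM in Control. Control replicate 1 was the lowest sample of that list, and 3 of the 4 were above all HFD samples in all HFD+Mino samples. The sums of neuron, oligodendrocyte and choroid plexus markers overlapped between HFD+Mino and HFD. The 7 neuron markers nevertheless had a median log2 fold change of -1.10 in HFD+Mino over HFD, and 0 of them were called. Rbfox3, Syt1 and Gad2 (named here after their values were seen) were below all HFD samples in all HFD+Mino samples, and 0 of the 7 were above. Every marker of these lists had over 3 counts in at least 1 sample. The part of cell composition in these results was not tested.

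**Figure D3:**
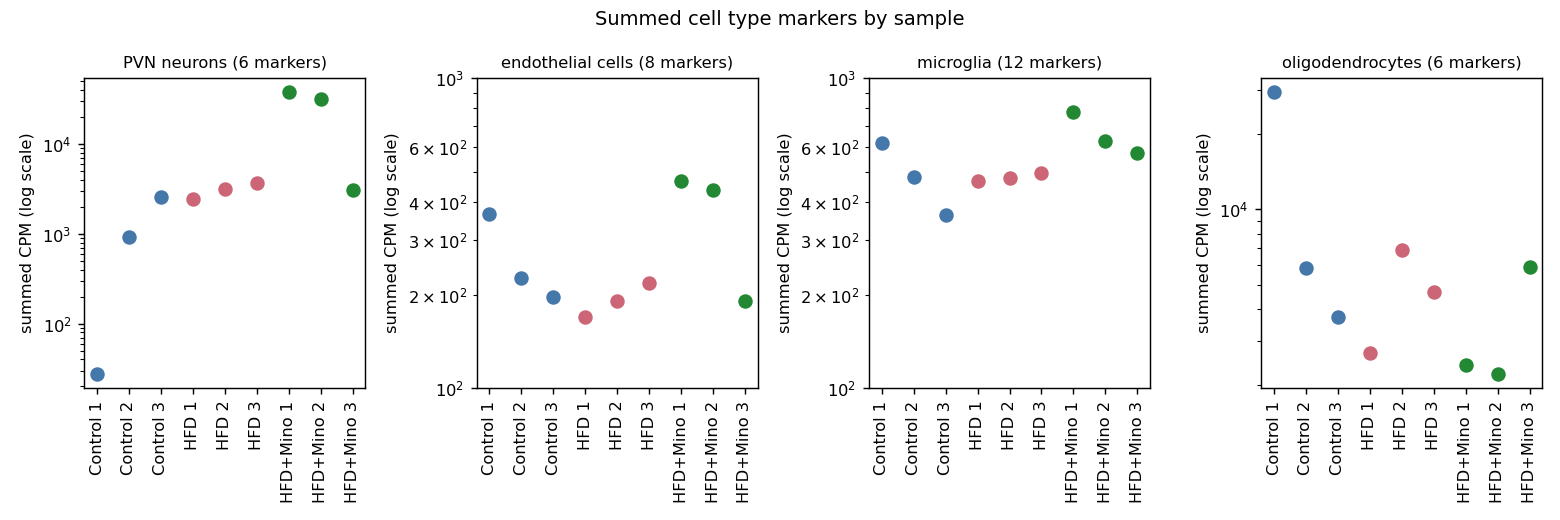
Points give the summed CPM (log axis) of marker genes of PVN neurons, endothelial cells, microglia and oligodendrocytes in each of the 9 samples. Control replicate 1 is lowest for PVN neurons (27.8 CPM) and highest for oligodendrocytes (29202 CPM), and HFD+Mino replicates 1 and 2 are highest for PVN neurons, endothelial cells and microglia.

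Other genes of the pathway were taken from lists of 121 genes, of which 109 were tested. The 10 interferon genes themselves had at most 5 counts in any sample and were not tested, so their transcripts were hardly detectable at this depth. Between HFD+Mino and HFD, 2 of the 109 were called higher and 1 lower by edgeR, and 15 were higher and 4 lower at an FDR under 0.05. These counts are near or below the shares of all tested genes, which are 1.98% higher and 2.16% lower by the call rule and 14.6% higher and 12.9% lower at an FDR under 0.05. The median of all 109 was 0.07. All HFD+Mino samples were above all HFD samples in 25 of the 109, a share near that of all tested genes. The nearer relatives of the 9 genes, 49 other genes induced by type I interferon, had a median of 0.47, with 12 higher and 2 lower at an FDR under 0.05.

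The called genes were Ifi35, Ifitm1 and Adar. Ifi35, an interferon-induced leucine zipper protein, measured 9.83, 6.66 and 6.41 CPM in Control, 3.71, 4.61 and 4.73 CPM in HFD and 21.4, 23.0 and 10.1 CPM in HFD+Mino, and its log2 fold change over HFD was 2.06 ± 0.36 (SE, edgeR FDR 0.00636). Ifitm1, a relative of Ifitm3, had means of 2.82 ± 1.83, 1.53 ± 0.0695 and 14.6 ± 8.58 CPM (SD, n = 3), with a log2 fold change of 3.25 ± 0.63 (SE, edgeR FDR 0.00889). Both stood apart from HFD in every HFD+Mino sample. Adar, which edits adenosine in double-stranded RNA, went the other way, with HFD the highest group. It was at 74.7, 92.5 and 173 CPM in Control, 230, 232 and 283 CPM in HFD and 79.0, 60.5 and 85.8 CPM in HFD+Mino. Its log2 fold change was -1.72 ± 0.31 in HFD+Mino over HFD (SE, edgeR FDR 0.00728) and 1.13 ± 0.30 in HFD over Control (SE, edgeR FDR 0.0546). Exons of Adar share 1365 bases with Chrnb2 on the opposite strand. None of the 3 calls was left without Control replicate 2, any 1 HFD sample or HFD+Mino replicate 1, while 5 genes of the lists were called without Control replicate 1, 2 without HFD+Mino replicate 2 and 15 without HFD+Mino replicate 3.

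Upstream components had medians near or below 0. The median log2 fold change in HFD+Mino over HFD was -0.04 for 15 receptors, kinases and transcription factors, -0.25 for 15 nucleic acid sensors and adaptors and -0.29 for 8 negative regulators. Jak1, a receptor kinase and the most abundant gene of its list by CPM, had a log2 fold change of -0.91 ± 0.23 (SE, edgeR FDR 0.0191). Tbk1, a kinase that activates IRF3, was at -0.59 (edgeR FDR 0.0663), and Pias1, a SUMO ligase that restrains cytokine signaling, at -0.52 (edgeR FDR 0.0733).

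Among the enzymes that conjugate ISG15 (4 genes, median 0.25), Ube2l6 had the highest CPM and a log2 fold change of 0.82 ± 0.38 (SE, edgeR FDR 0.133). The list of 18 tested genes induced by interferon gamma had a median of 0.44. At an FDR under 0.05, 3 of the 18 were higher, beside 14.6% of all tested genes. B2m, the light chain of MHC class I and its most abundant gene, was at 312, 162 and 89.8 CPM in Control, 106, 108 and 108 CPM in HFD and 400, 610 and 171 CPM in HFD+Mino, with a log2 fold change of 1.87 ± 0.48 (SE, edgeR FDR 0.0192). Ly6e, a surface protein that alters viral entry and that led the type I list by CPM, had a log2 fold change of 1.25 ± 0.30 (SE, edgeR FDR 0.0158). In B2m and Ly6e alike, HFD+Mino replicates 1 and 2 were the highest samples, as in Ifitm3.

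Between HFD and Control 0 of the 109 pathway genes were called by edgeR and 1 by DESeq2, with 11 at an unadjusted p under 0.05 (20.5% of all genes). Between HFD+Mino and Control 0 were called by edgeR and 1 by DESeq2, with 15 at an unadjusted p under 0.05 (21.3% of all genes). The 3-way test of edgeR called 0 of them and that of DESeq2 9, with 28 at an unadjusted p under 0.05, beside 13.5% of all genes called by DESeq2 and 39.0% at that p. With the replicate block for Control and HFD+Mino the calls of edgeR numbered 1, 1 and 7, and 15 between HFD+Mino and HFD, beside 6.22%, 3.18%, 13.2% and 25.6% of all genes.

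**Figure D4:**
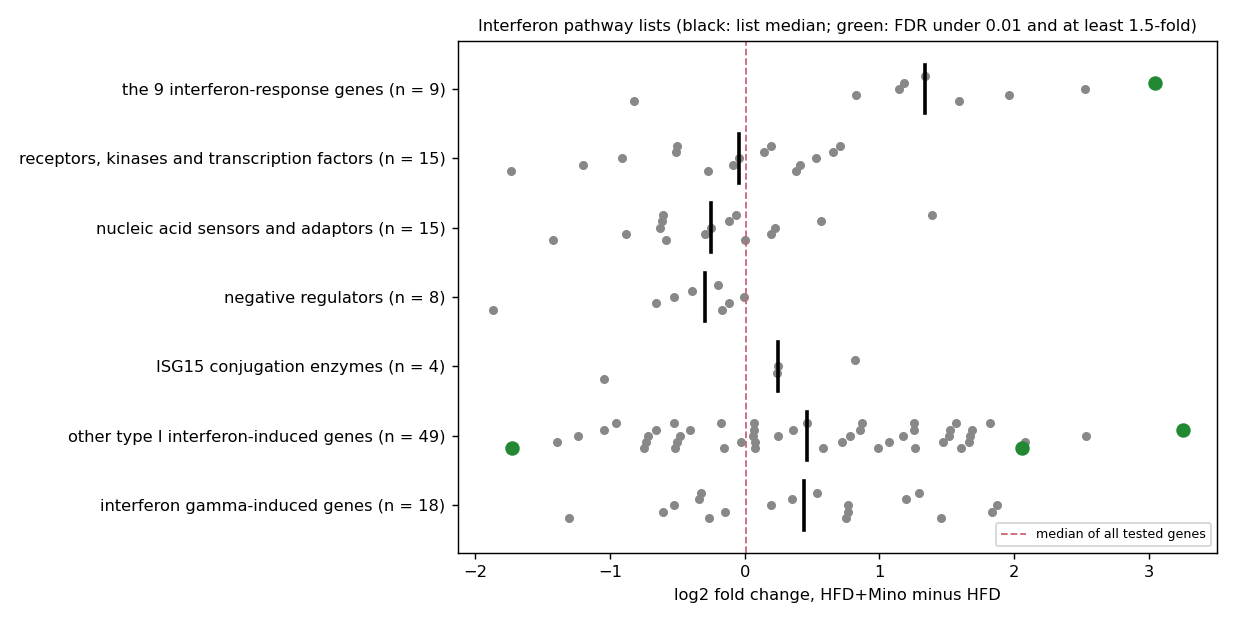
Points give the log2 fold change of HFD+Mino minus HFD for each tested gene of the 9 interferon-response genes and of 6 pathway lists, with black bars at list medians, green points for called genes and a dashed line at the median of all tested genes. The 9 genes have the highest median (1.34), and the lists of receptors, sensors and negative regulators have medians just below 0.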

How the data were processed

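PVN punches of 3 independent mice per group were sequenced after amplification of cDNA and tagmentation. Per the labels and the study's methods, reads were aligned to mm10 (GRCm38) with HISAT2 and assigned to genes with featureCounts, and the authors deposited raw counts per gene. Versions, the strand setting and the treatment of reads with several positions are not given in the sources used here. Tests were run in edgeR (version 4.0.16; R 4.3.3) with filterByExpr, TMM scaling and 1 quasi-likelihood model of all 9 samples, and code was tested on simulated data. Positions come from RefSeq GRCm38.p6, and exon lengths and overlaps from GENCODE. The 9 genes, the lists and the rules were chosen with earlier results of these data known. Named pathway genes were the called genes and the most abundant gene of each list. The rule also named 1 gene outright that is not reported here. Alternatives were DESeq2 1.42.0, another edgeR test, other scalings, filters and thresholds, trends on length or GC content removed, a replicate block, the 6 samples compared and each sample left out. Same-numbered Control and HFD+Mino samples deviated together (r = 0.135, 0.163 and 0.292). Those with HFD did not (r from -0.152 to -0.00624). Differently numbered pairs of Control and HFD+Mino ran from -0.162 to 0.0255. Differently numbered pairs with HFD reached 0.167 (Control replicate 2 with HFD replicate 1). HFD replicates are numbered by sample title, and the numbers of their count columns differ. This pairing comes from the counts alone, so calls made with the block rest on a pairing read from the same data. Depth is given with the results, and p-values measure the spread between these mice.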

Additional observations from a re-analysis of the deposited data

How the results depend on the processing

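Groups of 3 mice and the uneven composition of the punches limit these results, and groups of this size were not screened for outlying samples. In HFD+Mino over HFD, 168 of 198 estimates under alternatives kept their direction and their side of the threshold, 22 passed it, 8 lost it and 0 changed sign. As reported only 1 of the 9 genes, Isg15, was called there, so all 8 losses were of its call. Alternatives that combine the replicate block with a trend were chosen after seeing the data, and those that leave out a sample assume equal spread in all groups. Some alternatives moved no count of calls among the 9 genes or the pathway genes by over 1.5 times. These were library scaling by RLE, a mean count of at least 50 and omission of ribosomal and mitochondrial genes. The absence of a fold threshold and the 6 samples compared were 2 more. Among all genes the 6 samples compared did move the calls. HFD over Control had 192 higher and 425 lower of 16809, beside 55 and 247 as reported. HFD+Mino over HFD had 149 and 257 of 16742, beside 344 and 375.

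Between HFD+Mino and HFD, 1 of the 9 genes was called in the model as reported, and 4 by edgeR's likelihood ratio test, 3 with genes of low counts kept, 4 by DESeq2 and 4 at an FDR under 0.05. The replicate block in all 9 samples called 2, and the replicate block in Control and HFD+Mino alone called 5, or 5 with the trend on GC content removed and 0 with the trend on exon length removed. Removal of the length trend without a block called 0. Leaving out single samples gave 0 to 4, with 4 without HFD+Mino replicate 3, 2 without Control replicate 1 or 3 and 0 without any other. In the 3-way test, 0 were called as reported, 4 by the likelihood ratio test, 2 with genes of low counts kept, 4 by DESeq2, 4 at an FDR under 0.05, 1 with the replicate block in all samples, 4 with the block in Control and HFD+Mino alone and 2 with that block and the GC trend removed. Leaving out single samples gave 0 to 3, with 3 without HFD+Mino replicate 3 and 1 without Control replicate 1. Between HFD+Mino and Control the block in these groups called 1, with or without the GC trend removed, and leaving out samples gave 0 to 1, the 1 without HFD+Mino replicate 3. Between HFD and Control every alternative called 0. The replicate block changed no other call among the 9 genes. Calls among all genes moved too. Of 17344 tested genes, 344 were called higher and 375 lower in HFD+Mino over HFD as reported. The likelihood ratio test called 1788 and 1526, DESeq2 2127 and 1751, and the block in Control and HFD+Mino alone 2233 and 2209. Removal of the length trend left 326 and 132. Without HFD+Mino replicate 3 the calls numbered 2061 and 1754 of 17836. In the 3-way test 2.13% of all genes were called as reported, 13.5% by DESeq2 and 13.2% with the block.

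Of the 109 pathway genes, 3 were called between HFD+Mino and HFD as reported, 13 by the likelihood ratio test, 10 with genes of low counts kept, 16 by DESeq2, 19 at an FDR under 0.05, 15 with the block in Control and HFD+Mino alone, 18 with that block and the GC trend removed, 9 with that block and the length trend removed, 0 with the length trend alone removed and 0 to 15 without single samples. In the 3-way test these counts were 0 as reported, 8, 6, 9, 8, 7, 9 and 3, with 2 for the replicate block in all samples, 1 for the GC trend alone removed and 0 to 8 without single samples, the 8 without HFD+Mino replicate 3. Between HFD and Control they were 1 with the block in 2 groups, 2 with the GC trend removed as well, 1 by DESeq2 and 0 to 1 without single samples. Between HFD+Mino and Control they were 1, 4, 1 and 0 to 5. Calls among all genes rose as well in HFD+Mino over HFD, from 344 higher and 375 lower as reported. They numbered 2524 and 2233 at an FDR under 0.05, and 1113 and 792 of 25025 with genes of low counts kept. With the block they numbered 2729 and 2137 when the GC trend was removed and 1638 and 1159 when the length trend was removed. In the 3-way test the likelihood ratio test called 1081 and 1153 of all genes.

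Some small estimates changed sign. For Stat2 in HFD over Control (0.01 as reported) the values were -0.013 with genes of low counts kept, -0.014 with the GC trend removed, -0.15 with the length trend removed, -0.13 with the block and the length trend removed, and -0.13 to 0.25 without single samples. Leaving out single samples in HFD over Control gave -0.64 to 0.17 for Irf7, -1.24 to 0.16 for Usp18, -1.24 to 0.11 for Ifit3, -1.02 to 0.017 for Ifitm3 and -0.80 to 0.23 for Bst2, with the highest value, above 0, when Control replicate 1 was absent. In HFD+Mino over Control, Ifit1 (-0.07 as reported) was at 0.10 with the replicate block in all samples, 0.11 with the block in 2 groups and 0.14 with the GC trend removed as well, and it ranged from -0.36 to 0.61 without single samples, at 0.61 in the absence of Control replicate 1 and 0.01 in that of HFD+Mino replicate 3. Usp18 (0.29 as reported) ranged from -0.26 (HFD+Mino replicate 2 left out) to 1.30 (Control replicate 1 left out), and was at -0.12 with Control replicate 2 left out. The causes of these changes were not tested.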
